A study of Mus musculus with 12 samples.

Results

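The nuclear-encoded respiratory chain genes were examined in mouse bone marrow neutrophils cultured with or without a bile acid. They were chosen by name. A gene of the count table belonged to them if its symbol began with Nduf, Uqcr, Sdh, Cox4 to Cox8 or Atp5, if it did not lie on the mitochondrial chromosome, if its symbol did not carry the pseudogene ending -ps, and if its mean count over the 12 samples was at least 10. The rule found 91 of 29737 genes and uses no comparison between groups, but the set was chosen with earlier results of these data known. All 91 also passed the filter on low counts, which left 16761 genes for testing. The members comprised 36 subunits of complex I, 4 of complex II, 8 of complex III, 13 of complex IV and 15 of complex V, and 15 assembly factors and paralogues that share these name stems. Cox7a1 lay just inside the limit with a mean count of 10.2, and the isoform genes Cox4i2 and Cox6a2 lay just outside it with 7.08 and 6.92.

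The respiratory chain of the inner mitochondrial membrane passes electrons from NADH and succinate to oxygen through complexes I to IV and builds the proton gradient that drives ATP synthesis by complex V. Its subunits are encoded partly by the mitochondrial genome and mostly, complex II wholly, by nuclear genes, and the assembled complexes need assembly factors that are not part of the finished enzymes. Neutrophils are known for a small mitochondrial content and for drawing most of their ATP from glycolysis.

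The cells were wild-type bone marrow neutrophils. The methods of the study name C57BL/6 mice that were female and aged 4 to 6 weeks, and an enrichment kit, and the labels of the samples describe Ly6G-positive cells sorted with magnetic beads. Cells were cultured for 24 h in RPMI medium with serum. They received PBS as the control, taurocholic acid (TCA), tauro-β-muricholic acid (Tβ-MCA) or glycocholic acid (GCA), with 3 samples in each group. The labels give 200 μM for TCA and GCA and 10 μM for Tβ-MCA, whereas the methods give 200 μM for Tβ-MCA as well. TCA and GCA could therefore be compared at a matched dose, and the contrasts with Tβ-MCA could differ in dose as well as in compound. Neither source states whether the samples of a group came from separate mice, so the p-values measure the spread between these samples, which may be technical.

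Total counts per sample lay between 32757389 and 41375925, and 3 counts corresponded to 0.0725 to 0.0916 CPM, the counts scaled to library size. The summed CPM of 15 neutrophil markers was between 40139 and 61929. B cell, T and NK cell and erythroid markers summed to at most 14.4 CPM in any sample. The 10 proliferation markers, among them Mki67 and Top2a, summed to between 2765 and 3395 CPM, so transcripts of cycling cells were present in every sample. The 12 monocyte and macrophage markers, none of which was at 0 in any sample, were all lower in the Tβ-MCA group. They summed to 2784 to 3337 CPM with PBS, 2724 to 3325 with TCA, 1857 to 2944 with GCA, and 379, 454 and 2123 with Tβ-MCA, where replicate 5 stood apart from the others. The 8 eosinophil and basophil markers were also lower with Tβ-MCA, with sums of 60 to 129 CPM beside 146 to 253 with PBS. Of the neutrophil markers, 5 of 15 passed the test and were lower with Tβ-MCA, among them Ly6g and Mmp9. The members called with Tβ-MCA and the members' median are therefore also given without replicate 5. The part of the marker changes in the results was not tested.

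The control neutrophils contained transcripts of every complex, but at levels that spanned a 1234-fold range in RPKM. Levels between genes are compared as RPKM, which the authors calculated per length of merged exons. The median of the 91 members over the 3 PBS samples was 15.8 RPKM, with 20 members over 50 and 8 under 1. Cox5b, the zinc-binding subunit of cytochrome c oxidase, had the highest level on this scale with 177 ± 17.97 RPKM (SD, n = 3), followed by Uqcrh, the hinge protein of complex III, with 168 ± 20.5. Atp5h, subunit d of the ATP synthase stalk, had 119 ± 3.10 RPKM and Cox4i1, the common isoform of complex IV subunit 4, had 109 ± 10.3.

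Within complex I the RPKM levels ran from 0.988 RPKM for the accessory subunit Ndufb2 to 87.4 ± 7.52 for Ndufa8, an accessory subunit on the intermembrane space side. The 7 nuclear-encoded core subunits that carry flavin, iron-sulfur clusters or the quinone site were not equal in RPKM. Ndufs8 had 34.8 RPKM and Ndufv2 22.3, whereas Ndufs1 had 5.38. For complex II, Sdha, the flavoprotein that oxidizes succinate, had 46.8 ± 1.03 RPKM. The membrane anchor Sdhd had 16.5, the iron-sulfur subunit Sdhb 14.1 and the other anchor Sdhc 6.60. The assembly factors were the lowest set, with a median of 1.88 RPKM, from 0.144 for Sdhaf3, needed for succinate dehydrogenase assembly, to 50.5 ± 7.50 for Cox7a2l.

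Where a subunit has isoforms from separate genes, 1 isoform led in each case described here. Cox4i1 exceeded Cox4i2, the isoform of lung and hypoxic tissue, in all 12 samples. Cox4i2 had 1, 2 and 5 counts with PBS, 4, 10 and 5 with TCA, 3, 15 and 4 with GCA and 13, 14 and 9 with Tβ-MCA, and with so few counts no fold change is given. The somatic isoform Cox6b1 was 5.38 to 9.98 times as high in RPKM as the testis isoform Cox6b2 over all samples. Atp5g1, Atp5g2 and Atp5g3 encode the same mature c subunit of the ATP synthase rotor, and their PBS levels were 0.626 ± 0.107, 5.17 ± 0.66 and 10.4 ± 0.595 RPKM.

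**Figure D1:**
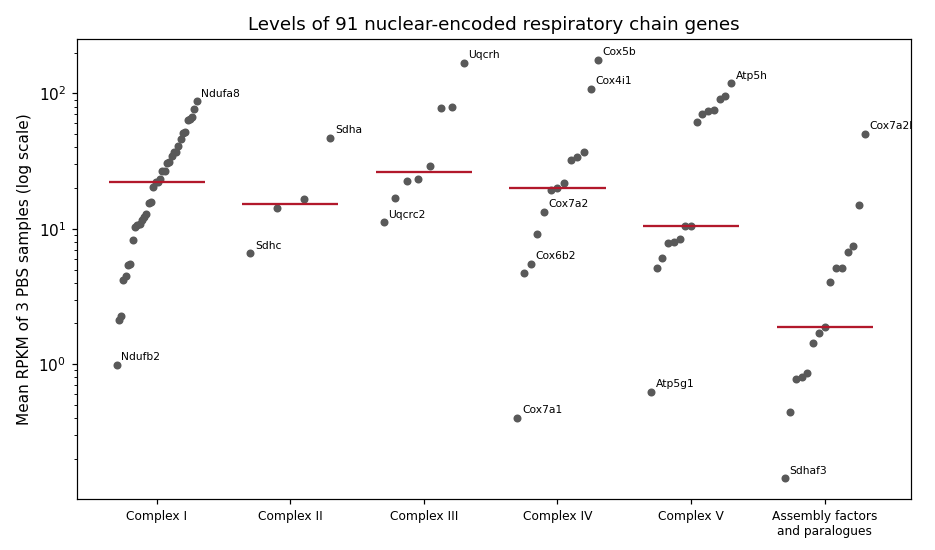
Mean RPKM over the 3 PBS samples of each member, on a log scale, grouped by complex, with the median of each set as a horizontal line. Complexes I to V had medians between 10.4 and 26.2 RPKM, and the assembly factors and paralogues 1.88.

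The order of the sets and of the leading genes depended on the length that was used. Merged exons were longer than the principal transcript for most members, by a median ratio of 1.35 and by 11.8 for Atp5l, and for 24 members the ratio was over 2. Counted per kilobase of the principal transcript, the median of the complex V subunits was 72.4 instead of 10.4, the highest of the sets, and Atp5j, a stalk subunit, led it with 371. On that scale Uqcrh (379) and Atp5j lay above Cox5b (318), and Ndufb7 (193) above Ndufa8 (87.4), which leads complex I in RPKM. The core subunit Ndufs1 had 16.4 beside 26.1 for Ndufv2 and 33.3 for Ndufs8, closer than in RPKM. Sdhb (27.7) lay above Sdhd (16.5), the reverse of their order in RPKM. Reads from near-identical copies also limit some levels. Of the members, 38 shared a stretch of 50 bases with another gene, and for 11 more than 20% of such stretches occurred elsewhere, among them Atp5l with 68.5%, Atp5h with 36.9% and Cox5b with 21.8%. Ndufb8, Atp5o and Ndufb2 overlapped another gene on the same strand. On the other strand 25 members overlapped a gene, among them Cox4i1, Atp5j and Uqcrb. Whether counting used the strand is not given, so these overlaps may also affect levels.

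The response to Tβ-MCA addresses whether this bile acid alters respiratory chain expression in neutrophils. In edgeR's quasi-likelihood test no member passed a Benjamini-Hochberg adjusted p of 0.05 (0 of 91), whereas 7.62% of all genes tested did. At an unadjusted p under 0.05 there were 13 members, 4 higher and 9 lower, which is 14.3% beside 24.9% of all genes. The values of the 2 groups did not overlap for 16 members, 7 higher and 9 lower, which is 17.6% beside 27% of all genes. DESeq2 called 5 members, 2 higher (Cox7a2l and Ndufa8) and 3 lower (Ndufaf4, Ndufb7 and Cox7a2), with DESeq2 adjusted p of 0.0332 to 0.0452. It called 6.84% of all 29737 genes, a share taken without the filter on low counts and so not on the same base as the others. The call with limma on log2(RPKM + 1) gave 0 of the 89 members tested there, beside 6.38% of 13951 genes.

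The differences of the members were small. Their log2 fold changes ran from -0.88 for Atp5s to 0.57 for Cox7a1, none exceeded 2-fold, and 84 of 91 lay within 0.3 of 0 on the log2 scale, which is 92.3% beside 67.3% of all genes. The median of the absolute change was 0.08 for the members and 0.19 for all genes. The median change was -0.04 for the members and 0.004 for all genes, with 35 members higher and 56 lower. Scaling by total library size raised the members' median to 0.007, with 48 higher and 43 lower. It also raised the median of all genes, to 0.05, so the members stayed below it. Without PBS replicate 5 the medians were 0.004 for the members and 0.002 for all genes. The 95% interval of the difference lay within 1.5-fold in either direction for 81 members, which is 89.0% beside 53.6% of all genes, and within 2-fold for 87. The members also varied less between replicates, with a median biological coefficient of variation of 0.0915. It was 0.118 for the 15415 genes between the members' lowest and highest abundance. That span holds most of the genes tested, so abundance was not matched in these comparisons with all genes.

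**Figure D2:**
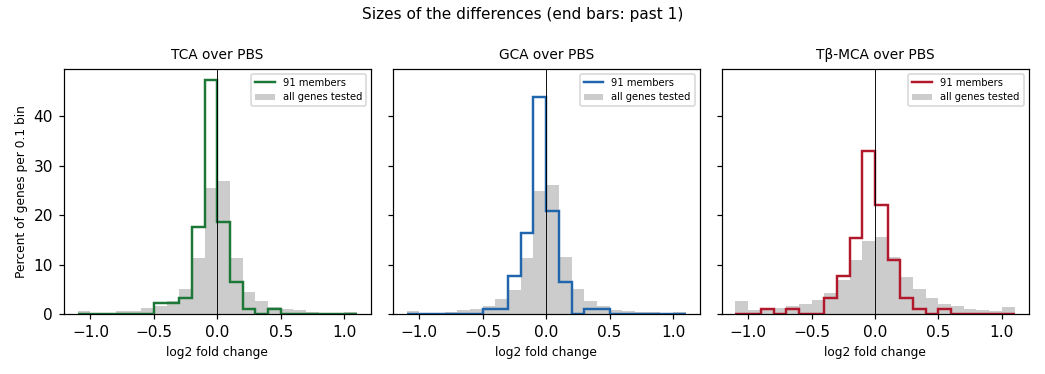
Percent of genes per 0.1 bin of the log2 fold change over PBS, for all genes tested (grey bars) and the 91 members (line), with TCA, GCA and Tβ-MCA. The members gather near 0 with each bile acid, and with Tβ-MCA 92.3% of them lie within 0.3 of 0 beside 67.3% of all genes.

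Ndufaf4, an assembly factor of complex I (chr4:24898083-24905001, + strand, GRCm38), had the smallest p of the members with Tβ-MCA. Its CPM was 3.16, 3.21 and 3.07 with PBS (replicates 3, 5 and 6) and 2.06, 1.62 and 2.49 with Tβ-MCA (replicates 3, 4 and 5). All Tβ-MCA samples lay below all PBS samples, and the lowest PBS sample was above the highest Tβ-MCA sample. The log2 fold change was -0.61 ± 0.18 (SE), and the edgeR adjusted p was 0.054, just over the threshold. With TCA the CPM was 2.76, 2.83 and 2.71, and with GCA it was 2.54, 2.43 and 1.89. Both groups also lay below all PBS samples, which these comparisons share.

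Cox7a2 and Cox7a2l, a pair of related genes, differed in opposite directions with Tβ-MCA. Cox7a2 (chr9:79755361-79759878, - strand) encodes the widely expressed isoform of a small complex IV subunit. Its CPM was 12.9, 13.5 and 11.9 with PBS and 8.23, 10.7 and 11.03 with Tβ-MCA, lower without overlap. Cox7a2l (chr17:83501919-83514333, - strand), also called SCAF1, encodes the related protein that joins complexes III and IV in supercomplexes, and C57BL/6 mice are known to carry a shortened form of it. Its CPM was 49.5, 65.5 and 60.7 with PBS and 67.5, 79.8 and 71.0 with Tβ-MCA, higher without overlap although the groups lay close. The log2 fold changes were -0.35 ± 0.12 for Cox7a2 and 0.31 ± 0.10 for Cox7a2l, with edgeR adjusted p of 0.0734 and 0.0702. Of the 50-base stretches of Cox7a2l, 17.8% also occur in the predicted gene Gm6969, and those of Cox7a2 occur in no other gene.

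The RPKM ratio of Cox7a2 to Cox7a2l, chosen after the values were seen and so given with no test, was 0.318, 0.251 and 0.239 with PBS and 0.148, 0.164 and 0.189 with Tβ-MCA. It was 0.293, 0.254 and 0.238 with TCA and 0.229, 0.228 and 0.210 with GCA. The Tβ-MCA samples had the 3 lowest ratios of the 12 samples. The GCA samples also lay below all PBS samples, and the TCA samples overlapped the PBS samples. Before scaling, Cox7a2 had 451, 459 and 442 counts with PBS and 367, 413 and 396 with GCA, so its lower values were not particular to Tβ-MCA.

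Accessory subunits of complex I were also among the members with the smallest p. Ndufa8 (chr2:36036326-36049406, - strand) had 69.8, 77.7 and 80.9 CPM with PBS and 93.3, 97.1 and 85.4 with Tβ-MCA, higher without overlap. Its log2 fold change was 0.27 ± 0.09 and its edgeR adjusted p 0.0659. Ndufb7, like Ndufa8 a protein with paired cysteine motifs that face the intermembrane space, went the other way. It had 116, 131 and 118 CPM with PBS and 105, 103 and 108 with Tβ-MCA, a log2 fold change of -0.21 ± 0.07 with an adjusted p of 0.0803 in edgeR. Ndufa1, an X-linked membrane subunit, had 22.6, 23.3 and 20.2 CPM with PBS and 17.6, 17.6 and 19.9 with Tβ-MCA, a log2 fold change of -0.26 ± 0.10 and an edgeR adjusted p of 0.101.

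**Figure D3:**
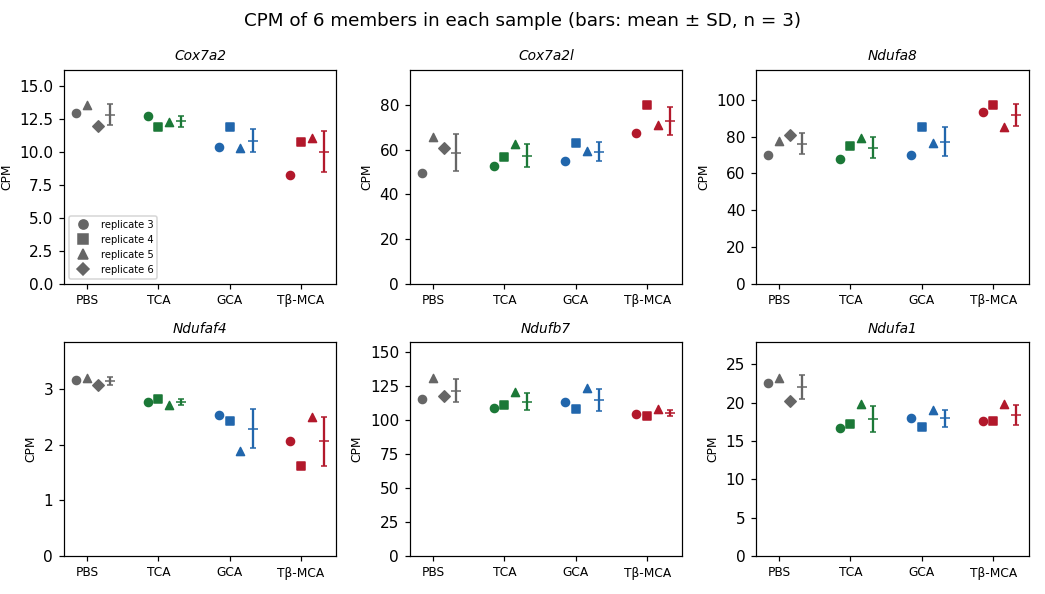
CPM of Cox7a2, Cox7a2l, Ndufa8, Ndufaf4, Ndufb7 and Ndufa1 in each of the 12 samples (symbols by replicate number), with the mean and SD of each group (n = 3) beside them. In all 6 panels the Tβ-MCA points do not overlap the PBS points, with Cox7a2l and Ndufa8 higher and the others lower.

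Of the remaining members with an unadjusted p under 0.05, Atp5s, a coupling factor also called Dmac2l, had the largest difference at -0.88 ± 0.36 on the log2 scale, but at only 0.618 to 0.717 CPM with PBS and 0.187 to 0.540 with Tβ-MCA. The complex IV members Cox5b and Ndufa4, the latter first assigned to complex I, had log2 fold changes of -0.22 each. Cox5b ranged from 250 to 300 CPM with PBS and from 210 to 263 with Tβ-MCA, and these ranges overlapped. The rotor gene Atp5g3 had -0.20 and the complex I core subunit Ndufs3 -0.21. Higher values were found for Atp5sl, a complex I assembly factor also called Dmac2, at 0.27, and for Uqcrfs1, the Rieske iron-sulfur protein of complex III, at 0.16. The edgeR adjusted p of these 7 genes lay between 0.112 and 0.199.

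**Figure D4:**
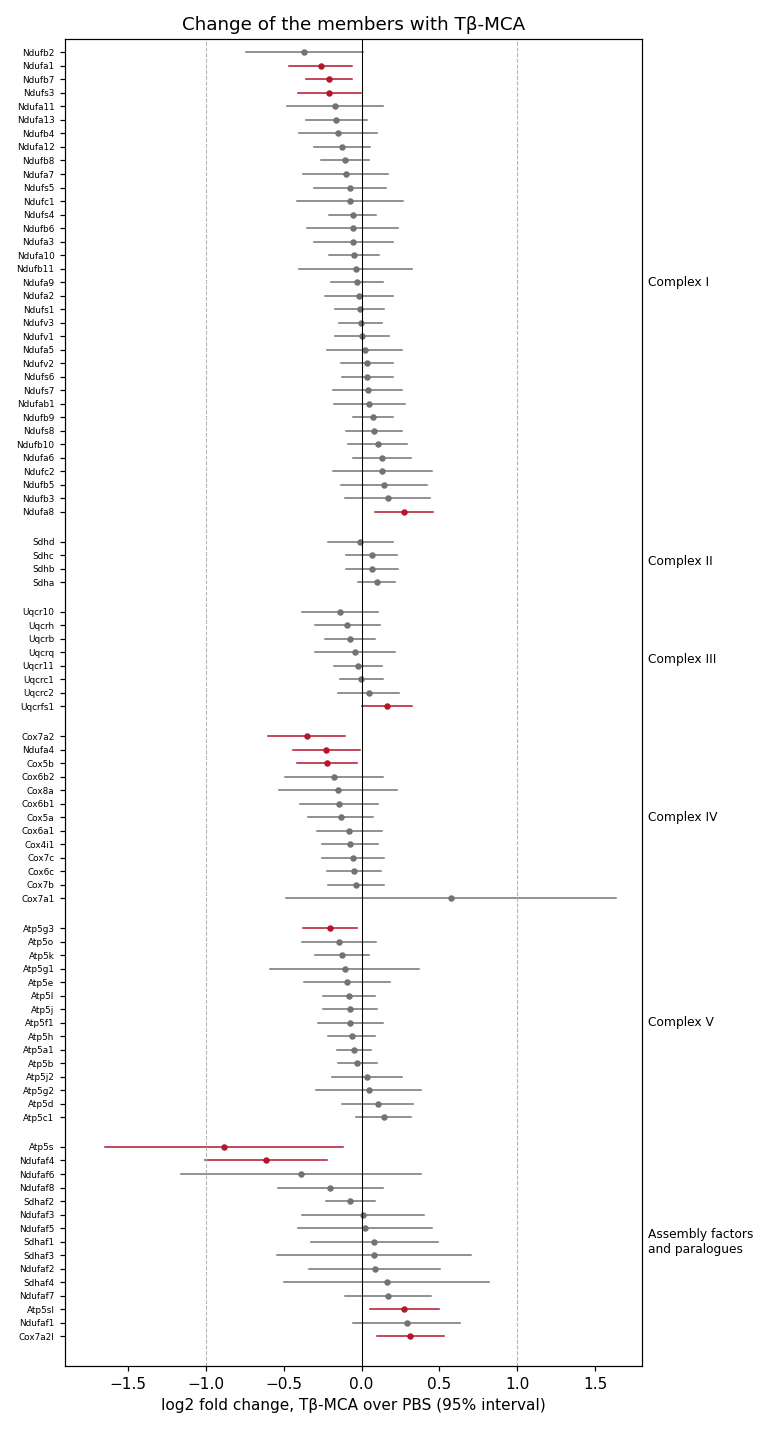
Log2 fold change of the members (1 is not shown), Tβ-MCA over PBS, with its 95% interval from edgeR, grouped by complex; members with an unadjusted p under 0.05 are red, and dashed lines mark 2-fold. Most members lie within 0.3 of 0, and 12 of 13 complex IV subunits lie to the left of it.

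By complex, the subunits of complex IV stood lowest and the assembly factors highest with Tβ-MCA. Of 13 complex IV subunits 12 were lower, with a median log2 fold change of -0.13. When scaled by total library size, 10 were lower with a median of -0.09, beside 0.05 for all genes. None of them passed the edgeR test, and 3 of the 13 had an unadjusted p under 0.05, a share near the 24.9% of all genes. Their summed CPM was 636, 732 and 703 with PBS and 587, 642 and 650 with Tβ-MCA. The highest Tβ-MCA sum exceeded the lowest PBS sum, so the groups overlapped. Complex IV took 13.9, 14.98 and 14.6% of the members' summed CPM with PBS and 12.97, 13.5 and 14.1% with Tβ-MCA. Complex IV also had the lowest median of the sets with TCA (-0.06) and with GCA (-0.07), with 11 of 13 lower in each, against the same PBS samples.

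The other complexes lay nearer to 0 with Tβ-MCA. The median was -0.07 for complex V (11 of 15 lower), -0.02 for complex I (21 of 36 lower) and -0.03 for complex III (6 of 8 lower). With total library size the medians of complexes I and III were above 0 (0.03 and 0.02) but below that of all genes (0.05). All 4 complex II genes had log2 fold changes between -0.01 and 0.10. Sdha, for example, had 191, 180 and 182 CPM with PBS and 195, 204 and 192 with Tβ-MCA, and its 95% interval ran from -0.02 to 0.21. The complex I core subunits Ndufs1, Ndufv1 and Ndufv2 had log2 fold changes of -0.01, 0.002 and 0.03, and the bounds of their 95% intervals ran from -0.17 to 0.20. The 15 assembly factors and paralogues had a median of 0.08 with 10 higher, and Cox7a2l held the largest part of their summed CPM.

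**Figure D5:**
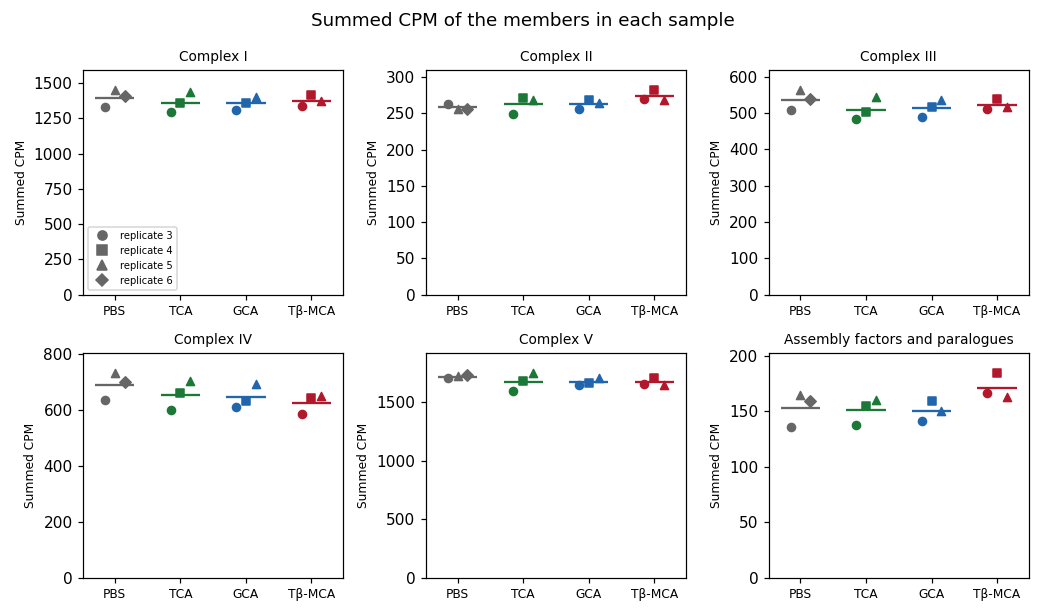
Summed CPM of the members of each set in each of the 12 samples, with the group mean as a line; symbols give the replicate number. For complex IV the Tβ-MCA mean of 627 is the lowest of the 4 groups and the PBS mean of 690 the highest, with overlapping samples.

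Leaving out Tβ-MCA replicate 5, the sample with the monocyte markers nearest to PBS, 6 of 91 members passed the edgeR adjusted p against PBS, while 18% of all genes did. Ndufa8 was higher, and Ndufaf4, Cox7a2, Cox5b, Ndufs3 and Ndufa1 were lower, with log2 fold changes of 0.32, -0.77, -0.43, -0.30, -0.33 and -0.32. Without replicate 3 or 4 of Tβ-MCA or replicate 3 or 5 of PBS, no gene of the whole table passed, and without PBS replicate 6 168 did and no member. Which members were called depended on which samples entered. Without Tβ-MCA replicate 5 the members' median log2 fold change against PBS was -0.02, beside 0.003 for all genes.

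With TCA, no member and no other gene passed the adjusted p in edgeR (0 of 91 members, 0% of all genes), nor did a member in DESeq2 or limma. At an unadjusted p under 0.05 there were 5 members, all lower, which is 5.49% beside 3.26% of all genes. The groups did not overlap for 13 members, 12 of them lower, which is 14.3% beside 9.67%. The 5 were Ndufa1, Atp5g3, Cox6b2, Atp5k and Ndufb6, with log2 fold changes of -0.30, -0.25, -0.41, -0.22 and -0.31. Ndufa1 had 16.7, 17.2 and 19.8 CPM with TCA, all below its 3 PBS values. The median log2 fold change was -0.04 with 25 members higher and 66 lower, but it ranged from -0.09 without TCA replicate 5 to -0.003 without TCA replicate 3. The 95% interval of 81 members lay within 1.5-fold.

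With GCA, Atp5k and Ndufa1 had the smallest p, and both were lower. No member and no other gene passed the adjusted p in edgeR (0 of 91 members, 0% of all genes), and DESeq2 and limma also called no member. At an unadjusted p under 0.05 there were 3 members, all lower, which is 3.3% beside 3.53% of all genes. The groups did not overlap for 10 members, 9 of them lower, which is 11% beside 9.55%. Atp5k, subunit e of the ATP synthase dimer, had the smallest p, with 50.3, 47.6 and 44.3 CPM with PBS and 38.1, 39.6 and 38.3 with GCA. Its log2 fold change was -0.29 ± 0.08, with an unadjusted p of 0.00235 and an edgeR adjusted p of 0.999. The others were Ndufa1, with 17.97, 16.8 and 19.1 CPM and a log2 fold change of -0.29, and Ndufaf4 with -0.46. The median was -0.05, with 27 members higher and 64 lower, but it was -0.08 without PBS replicate 3, -0.01 without PBS replicate 5 and -0.008 without GCA replicate 3.

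The comparisons with PBS share the same 3 PBS samples, so they are not independent of each other. Ndufa1 and Ndufaf4 were each lower in all 9 bile acid samples than in any of the 3 PBS samples. Against TCA, Tβ-MCA again called no member in edgeR (0 of 91, beside 3.51% of all genes), with 7 at an unadjusted p under 0.05 (3 higher, 4 lower; 7.69% beside 22.2%) and 14 without overlap (15.4% beside 25.3%). Ndufa8 and Cox7a2l had the smallest p, with log2 fold changes of 0.31 ± 0.09 and 0.34 ± 0.10 and adjusted p of 0.0561 and 0.0661. Cox7a2 had -0.29 ± 0.12, with TCA values of 12.7, 11.9 and 12.3 CPM. DESeq2 called Ndufa8 and Cox7a2l higher, limma called no member, and without Tβ-MCA replicate 5 edgeR called Ndufa8, Cox7a2l and Ndufaf7 higher, while 15.3% of all genes passed. The median was 0.03, with 52 members higher and 39 lower. When scaled by total library size it was 0.07 with 62 higher and 29 lower, beside a median of 0.05 for all genes. The members' median was -0.03 without TCA replicate 3, 0.004 without Tβ-MCA replicate 4 and 0.015 without Tβ-MCA replicate 5. The dose of the labels differs between TCA and Tβ-MCA.

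TCA and GCA share cholic acid and differ in the conjugated amino acid, taurine or glycine. This was the 1 pair of bile acids for which both the labels and the methods give a matched dose. No member and no other gene differed in edgeR (0 of 91 members, 0% of all genes), and DESeq2 and limma called no member. At an unadjusted p under 0.05 there were 2 members, which is 2.2% beside 2.46% of all genes, and 5 did not overlap, which is 5.49% beside 8%. The 2 were Cox6b2, at 0.36 ± 0.15 on the log2 scale for GCA over TCA with 5.18, 3.99 and 4.74 CPM with TCA and 6.73, 6.19 and 4.95 with GCA, and Atp5g3 at 0.18 ± 0.08. The median over the members was -0.01, with 41 higher and 50 lower, and leaving out 1 sample gave -0.06 (TCA replicate 3) to 0.04 (TCA replicate 5). The 95% interval of the difference lay within 1.5-fold for 82 members and within 2-fold for 89, so for most members a difference of more than 1.5-fold between these 2 compounds was outside the interval.

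Among the 9 bile acid samples, a median of 22.2% of a member's variation lay between treatments and 34.6% between replicate numbers, against 30.8% and 26.7% over all genes. With 3 samples per treatment or number such shares are sizeable even without any effect, and no baseline for them was computed. The summed CPM of all 91 members was 4578, 4888 and 4798 with PBS, 4360, 4631 and 4858 with TCA, 4455, 4599 and 4756 with GCA, and 4528, 4772 and 4615 with Tβ-MCA. Replicate 3 was the lowest in every group, and the highest sample was 1.121 times the lowest.

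Genes around the respiratory chain were described by lists with the same test, in which 7.62% of all genes were called with Tβ-MCA. All 13 mitochondrially encoded subunits were higher with Tβ-MCA, with a median log2 fold change of 0.12, but none passed the edgeR adjusted p, and 3 of the 13 had an unadjusted p under 0.05, a share near the 24.9% of all genes. They summed to 3724, 4130 and 3845 CPM with PBS and 3918, 4559 and 4339 with Tβ-MCA, and the groups overlapped. With TCA 12 and with GCA 11 of them were higher, and none passed. Of 41 further assembly factors 1 was called, and Atpaf1, a chaperone of the ATP synthase F1 part, was higher (0.37 ± 0.10, adjusted p of 0.0395 in edgeR). Of 19 enzymes of the tricarboxylic acid cycle Idh3a, a subunit of isocitrate dehydrogenase, was called lower (-0.60 ± 0.15, adjusted p of 0.0314 in edgeR). None of 22 genes of cytochrome c, carriers and transport was called. Of 16 regulators of respiratory gene transcription 2 were called lower, Hif3a (-1.31 ± 0.23) and Myc (-1.12 ± 0.23).

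Promoters are shown for the members with the smallest p with Tβ-MCA, to set the motifs known from respiratory chain genes beside them. The windows hold 250 bases before and 50 after the start site in RefSeq (GRCm38.p6), at chr4:24897833-24898132 (+ strand), chr2:36049289-36049588 (- strand), chr17:83514284-83514583 (- strand) and chr9:79759804-79760103 (- strand). Capitals mark the core GCGCATGC of nuclear respiratory factor 1 and the GC box GGGCGGG of SP1, on either strand.
Ndufaf4: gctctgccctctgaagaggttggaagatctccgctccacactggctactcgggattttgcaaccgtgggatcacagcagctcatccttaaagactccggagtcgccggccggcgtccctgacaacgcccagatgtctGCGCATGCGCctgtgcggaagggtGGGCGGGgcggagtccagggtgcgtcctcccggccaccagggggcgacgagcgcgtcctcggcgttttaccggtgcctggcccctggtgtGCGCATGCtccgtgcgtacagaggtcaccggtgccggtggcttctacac
Ndufa8: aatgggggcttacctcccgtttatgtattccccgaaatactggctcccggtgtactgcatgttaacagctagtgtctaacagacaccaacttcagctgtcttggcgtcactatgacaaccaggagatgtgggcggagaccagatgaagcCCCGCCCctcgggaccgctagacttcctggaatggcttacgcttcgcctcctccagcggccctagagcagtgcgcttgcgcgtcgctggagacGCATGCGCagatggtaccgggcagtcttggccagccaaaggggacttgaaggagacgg
Cox7a2l: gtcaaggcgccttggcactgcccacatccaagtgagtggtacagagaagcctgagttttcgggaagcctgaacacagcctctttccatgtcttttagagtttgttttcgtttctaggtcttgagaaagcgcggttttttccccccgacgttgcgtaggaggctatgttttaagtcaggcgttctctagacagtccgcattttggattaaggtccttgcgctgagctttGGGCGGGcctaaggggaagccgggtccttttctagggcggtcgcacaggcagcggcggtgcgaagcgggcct
Cox7a2: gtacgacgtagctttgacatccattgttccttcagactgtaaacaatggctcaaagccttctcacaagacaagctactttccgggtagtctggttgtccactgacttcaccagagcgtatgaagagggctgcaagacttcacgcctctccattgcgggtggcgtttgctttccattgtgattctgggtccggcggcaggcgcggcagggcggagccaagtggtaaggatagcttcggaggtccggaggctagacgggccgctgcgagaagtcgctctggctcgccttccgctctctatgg

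Ndufaf4 held 3 matches of the nuclear respiratory factor 1 core, 2 of which overlap, and 1 GC box. Ndufa8 held 1 of each, Cox7a2l 1 GC box and Cox7a2 neither. Of the 91 members 79 had a promoter in the table. The nuclear respiratory factor 1 core occurred in 12 of the 79 (15.2%), in 3.05% of 27025 genes and in 3.94% of the coding genes among them. The YY1 core AAGATGG occurred in 16.5% of the members beside 7.28% (7.18% of coding genes), the element TCAAGGTCA of estrogen-related receptors in 2.53% beside 0.466% (0.377%), the CRE TGACGTCA in 5.06% beside 2.03% (2.54%) and the ETS site CCGGAAGT in 6.33% beside 4.31% (5.69%), which is close to the members' share. The GC box occurred in 36.7% beside 27.9%, and in 36.9% of coding genes, and the CCAAT box in 44.3% beside 41.1% (42.3%). These are matches of letters, each counted on both strands.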

How the data were processed

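RNA of 12 samples (PBS, TCA, GCA and Tβ-MCA, 3 each) was sequenced from stranded mRNA libraries. Per the labels, the authors used Trimmomatic 0.36, STAR 2.5.3a and featureCounts (Subread 1.5.1) on GRCm38/mm10, and deposited raw counts per gene and RPKM values (counts scaled by merged exon length and sample total). Whether counting used the strand is not given in the sources used here. Total counts lay between 32757389 and 41375925 per sample, and detection limits from them cover counting error only.

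Counts were normalized by TMM and filtered with filterByExpr in edgeR 4.0.16 (R 4.3.3), and all 12 samples entered 1 robust quasi-likelihood fit over 16761 genes, with Benjamini-Hochberg adjustment over all of them and a threshold of 0.05. The samples sharing a number were not treated as pairs. Standard errors are the log2 fold change over the square root of F. CPM values are TMM-scaled. Alternatives were DESeq2 1.42.0, limma 3.58.1 on log2 RPKM with a pseudocount of 1 or 0.1 for genes of mean RPKM 0.5 or more, other scalings and filters, only the groups compared, the replicate block, an unadjusted p with 2-fold, and each sample left out in turn. The fit was tested on simulated data. Gene models and shared 50-base stretches came from GENCODE vM21, and promoters from RefSeq.

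The members and lists were chosen with earlier results of these data known. Genes named are the 20 members with the smallest p for Tβ-MCA over PBS and 5 for each other comparison, the highest and lowest level in each complex, isoform genes, the Sdh subunits and the complex I core; others are named where a count of 5 or fewer calls for it. Values of 1 member are not reported here by name, and it is included in all counts.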

Additional observations from a re-analysis of the deposited data

How the results depend on the processing

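The number of members called changed with the setting for Tβ-MCA alone. Against PBS it was 0 higher and 0 lower in edgeR, 2 and 3 in DESeq2, 2 and 0 with no filter, and 0 and 1 with a minimum of 10 counts per sample. Leaving out 1 sample in turn gave 0 to 1 higher and 0 to 5 lower, all from Tβ-MCA replicate 5. Against TCA it was 0 higher in edgeR, 2 in DESeq2, 1 with total library size, 2 with no filter, and 0 to 3 with 1 sample left out. Where 1 sample of a group was left out, the spread was pooled over the samples left in all groups. With TCA and GCA against PBS and GCA against TCA, no setting called a member. The cause of these differences was not tested. All genes called with Tβ-MCA against PBS numbered 1278, but 2035 in DESeq2, 2406 with no filter and 1342 with the minimum of 10 counts. They numbered 890 in limma with a pseudocount of 1 and 803 with 0.1. With only the 2 groups compared they numbered 0, and with 1 sample left out 0 to 3076. Against TCA, 588 became 1540 in DESeq2, 2077 with no filter and 775 with total library size. The number was 72 with the 2 groups only, 0 in limma and 0 to 2619 with 1 sample left out. The log2 fold change of Ndufb6 (-0.06) changed sign when samples were left out (-0.16 to 0.10), and was 0.10 without PBS replicate 5. Members at low counts, such as Atp5s and Cox7a1, had the widest intervals.

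With the replicate block, 2 members were called higher (Cox7a2l, 0.31, adjusted p 0.0301, and Ndufa8) and 3 lower (Cox7a2, -0.44, Cox5b and Ndufb7) with Tβ-MCA against PBS in edgeR, 2 were higher against TCA, and the counts of all genes called became 1498 and 2322. Over all genes, 12 of 15 pairs of samples with the same number had deviations from the group means that correlated over 0.1 (lowest 0.0597), and 10 of 11 samples correlated best with their own number. Over the members these were 10 of 15 pairs (lowest -0.132) and 7 of 11 samples, which is a hint from the data and not from the design. Replicate 6 exists with PBS alone, so the block leaves that sample out of the comparison.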
